A study of Sciaenops ocellatus with 36 samples.

Results

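Larvae of the red drum, Sciaenops ocellatus, a fish of coastal seas, that had been kept in weathered slick oil were compared directly with larvae kept in source oil, both at 72 hours post-fertilization (hpf). The 6 libraries, 3 per oil, are those labelled as oil-exposed at this age, out of 36 samples described for the series, and each holds RNA pooled from 30 whole larvae. Slick oil is Deepwater Horizon oil that had weathered at sea and was used at 2.50%. Source oil is a non-weathered surrogate for the oil of the well, labelled Mass oil, and was used at 0.27%. All animals came from brood stock tanks as embryos, were treated with formalin and were held at 25 °C, and the labels do not say whether the 3 pools of a group came from separate tanks or spawns, so p-values reflect only how these samples vary, which may be technical. Clean-water larvae of the source series, 3 libraries, stand beside both oils as a common background; slick-series controls of 72 hpf were not used here. Oil, dose and series changed together. The column headers also give the slick-oil libraries sample numbers that occur a second time among the source-series controls. None of these 4 differences can be told apart in this comparison. The 3 libraries of each group carry the header numbers 7, 8 and 9, and values of single libraries below follow that order.

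Aromatic hydrocarbons of crude oil bind the aryl hydrocarbon receptor (AHR), a transcription factor that switches on the cytochrome P450 enzymes which oxidise them. Fish larvae exposed to crude oil are known for slowed heart development, fluid around the heart, small or poorly formed eyes and disturbed lipid metabolism. Stress also switches on immediate early genes, whose transcripts appear within minutes and vanish quickly, and the cytokine, protease and chaperone genes that follow them.

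Total counts were 2675935 to 2707251 in slick-oil libraries, 2732991 to 2995665 in source-oil libraries and 2951219 to 3139105 in clean-water libraries. Levels are CPM, counts relative to the library size after TMM scaling, and log2 fold changes are slick oil over source oil. Rows carry human gene symbols, so a symbol stands for the fish transcripts that were assigned to it. Of 56346 rows, 8944 had enough counts to be tested, and 1562 of these (17.5%) were called at an edgeR adjusted p under 0.05. Slick-oil larvae had higher levels of 681 genes (7.61%) and lower levels of 881 (9.85%). Most differences were small, with a median absolute log2 fold change of 0.493 among called genes. Only 153 called genes reached a log2 fold change of 1 in size, 33 of them higher and 120 lower with slick oil. In 1480 of the 1562 called genes the libraries of the 2 oils did not overlap; slick-oil libraries lay above source-oil libraries in 1416 (15.8%) and below them in 1487 (16.6%) of the 8944 genes. Scaling by library totals alone shifted the log2 fold changes by a median of 0.169 and gave 2313 calls, 1860 of them (80.4%) higher and 453 lower, against 43.6% higher with TMM. The 681 genes higher with slick oil were 447 without slick-oil library 8 and 434 without source-oil library 8. A further fit of all 12 libraries subtracted the difference between unexposed larvae of the slick and the source series at 48 hpf, on the assumption, which was not tested, that the series differ at 72 hpf as they do at 48 hpf. It called 398 of 9362 genes (4.25%), 149 (1.59%) higher and 249 (2.66%) lower. These shares of all genes stand beside every list count with the series difference subtracted below. List counts of slick over source oil without subtraction stand beside 7.61% higher and 9.85% lower. A list count near such a share is no result about that list. In bulk RNA of whole larvae, fewer cells of a type and less RNA per cell cannot be told apart.

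**Figure D1:**
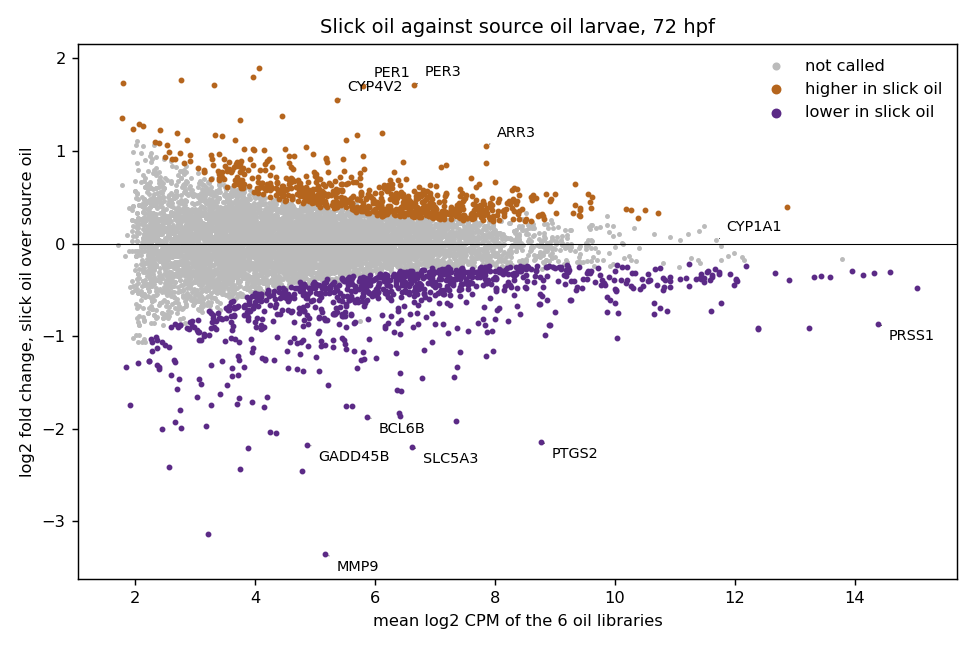
Each point is 1 of the genes tested, with its mean log2 CPM over the 6 oil libraries on the x axis and the log2 fold change of slick oil over source oil on the y axis; coloured points are called. MMP9 lies lowest at -3.36, PER1 and PER3 stand near the top at 1.70 and 1.71, and CYP1A1 lies at 0.04 among genes of high level.

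The aromatic hydrocarbon response did not separate the oils in the direct comparison. CYP1A1, the main AHR-driven P450, had 2967, 3242 and 3543 CPM in slick-oil larvae and 2858, 3002 and 3596 CPM in source-oil larvae, against 178, 235 and 371 CPM in clean water. The oil libraries overlapped, and all 6 lay far above the clean-water libraries. The log2 fold change of slick over source oil was 0.04 (SE 0.0894, edgeR adjusted p = 0.814), with a 95% interval of -0.14 to 0.22. AHRR, the receptor's repressor and itself a target, averaged 89.0 ± 3.70 CPM with slick oil and 89.2 ± 5.99 CPM with source oil (SD, n = 3 each), against 11.5 ± 2.79 CPM in clean water. Its interval was -0.21 to 0.19, and that of CYP1B1, another AHR-driven P450, was -0.12 to 0.54. The forkhead factor FOXQ1 had an interval of 0.00 to 0.41 (log2 0.20, edgeR adjusted p = 0.175) and passed the test only with scaling by library totals. Among 12 measured of 20 listed genes of the receptor, its partners and its targets, 0 were higher and 1 was lower with slick oil, and the median log2 fold change was 0.02, beside 0.00355 over all genes. The lower gene was PTGS2, described below. Against clean water, 6 of 11 measured genes of the list were higher and 0 lower with slick oil, where 8.55% of all genes were called higher, and 6 of 11 were higher and 0 lower with source oil, where the share was 11.4%. These comparisons share the same clean-water libraries. CYP3A4, a P450 of drug and steroid oxidation, and the growth factor FGF7 were also high with both oils. Their intervals for slick over source oil were -0.07 to 0.37 and -0.07 to 0.34. In unexposed larvae of the slick series at 48 hpf, CYP1A1 was lower by 0.75 (edgeR adjusted p = 0.0513). With that series difference subtracted, CYP1A1 moved to 0.76 (edgeR adjusted p = 0.108), AHRR to -0.31 and FGF7 to 0.67. These values were not called. They lay outside the intervals above, which belong to the fit without subtraction. Their own SEs were larger, 0.267 for CYP1A1, 0.184 for AHRR and 0.267 for FGF7, and the shift itself was not tested. CYP1B1 (0.39), CYP3A4 (0.22) and FOXQ1 (0.13) stayed inside theirs and were not called either. TIPARP, another AHR target, had a count of 0 in all 9 libraries.

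Acute-response genes were lower in slick-oil than in source-oil larvae, and several of them stood near the clean-water level with slick oil. Of 21 measured immediate early genes (27 listed), 16 were lower and 1 was higher with slick oil, with a median log2 fold change of -0.44. NPAS4, a neuronal factor induced by electrical activity, had 5.77, 10.6 and 7.94 CPM with slick oil and 46.8, 42.1 and 44.6 CPM with source oil, against 4.46, 6.86 and 4.62 CPM in clean water. The 3 source-oil libraries lay close together and far above the other 6. NPAS4 thus differed by -2.46 on the log2 scale (SE 0.178, edgeR adjusted p = 7.79e-11). FOS, a subunit of the AP-1 transcription factor, had 6.11, 5.11 and 10.0 CPM with slick oil and 33.5, 34.5 and 18.9 CPM with source oil (log2 -2.03). DUSP1, a phosphatase that shuts off stress kinases, had 28.9, 31.7 and 47.7 CPM with slick oil, 142, 173 and 76.0 CPM with source oil and 47.4, 32.9 and 42.9 CPM in clean water (log2 -1.86, SE 0.193, edgeR adjusted p = 4.4e-08). Slick-oil library 9 was the highest of its group and source-oil library 9 the lowest of its group in FOS and in DUSP1, without overlap. The AP-1 subunit JUNB was lower by 1.77 on the log2 scale. GADD45B, a gene outside this list that responds to stress, was lower by 2.18. CTGF, a secreted matrix protein, was the gene that was higher with slick oil (log2 0.28). It was lower in unexposed larvae of the slick series than in those of the source series at 48 hpf, by 0.62 on the log2 scale. Against clean water, 2 of 19 measured immediate early genes were higher and 0 lower with slick oil, where 8.55% of all genes were called higher. With source oil 17 of 21 were higher and 0 lower, where the share was 11.4%. The 16 lower genes were 9 without slick-oil library 7, 10 without source-oil library 7, 9 without source-oil library 8, 9 with DESeq2 and 9 with scaling by library totals.

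BCL6B, a transcriptional repressor, separated the oils with little spread. It had 25.5, 21.8 and 25.6 CPM with slick oil and 94.4, 88.9 and 83.1 CPM with source oil, against 21.3, 23.5 and 25.4 CPM in clean water. Slick-oil and clean-water libraries overlapped, and the log2 fold change between the oils was -1.87 (SE 0.122, edgeR adjusted p = 1.06e-11). SLC5A3, the sodium-driven carrier that brings myo-inositol into cells, had 19.4, 27.6 and 55.6 CPM with slick oil and 194, 170 and 105 CPM with source oil, against 54.6, 45.9 and 52.5 CPM in clean water. Source-oil libraries were all above clean water, and slick-oil library 9 alone reached it. SLC5A3 differed by -2.20 on the log2 scale (SE 0.207, edgeR adjusted p = 9.07e-09). IMPA1, the phosphatase that frees myo-inositol inside the cell, had 38.7, 45.6 and 116 CPM with slick oil and 320, 263 and 172 CPM with source oil (log2 -1.92, SE 0.219). Slick-oil library 9 was far above the other slick-oil libraries, and without it the log2 fold change of IMPA1 was -2.57. Inositol is an organic osmolyte that fish tissues take up or make under salt stress, and SLC5A3 and IMPA1 provide its import and its synthesis.

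Inflammatory and matrix-degrading genes were lower with slick oil as well. PTGS2, the enzyme that makes prostaglandins during inflammation, had 106, 118 and 243 CPM with slick oil and 717, 930 and 408 CPM with source oil, against 114, 57.1 and 64.4 CPM in clean water. The oils did not overlap, although slick-oil library 9 and source-oil library 9 lay nearest to each other. Their log2 fold change was -2.14 (SE 0.211, edgeR adjusted p = 1.92e-08). Of 17 measured genes of inflammation and cytokine signalling, 10 were lower and 0 higher with slick oil (median -0.61); the 10 were 5 without slick-oil library 7 and 6 with DESeq2. They included REL, a subunit of NF-κB, at 8.32 ± 0.52 CPM with slick oil and 26.3 ± 4.31 CPM with source oil (SD, n = 3 each; log2 -1.66), and SOCS3, which dampens cytokine receptors (log2 -1.71). STAT3, the factor through which many cytokines act, had 708, 701 and 773 CPM with slick oil and 1056, 1232 and 955 CPM with source oil (log2 -0.58, SE 0.0901, edgeR adjusted p = 3.03e-05).

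MMP9, a secreted gelatinase made by white blood cells and wounded epithelium, fell furthest among genes that were called, had no overlap and were not of low level. Its slick-oil libraries had 0.679, 1.36 and 16.6 CPM and its source-oil libraries 73.9, 70.3 and 46.4 CPM, against 17.2, 3.97 and 2.64 CPM in clean water. Slick-oil libraries 7 and 8 were near 0, and library 9 lay within the clean-water range. The log2 fold change was -3.36 (SE 0.342, edgeR adjusted p = 2.95e-08), and it was -5.90 without slick-oil library 9. Of 22 measured secreted metalloproteinases and inhibitors, 9 were lower and 1 was higher with slick oil (median -0.24). The inhibitor TIMP3 had 36.7, 27.9 and 42.1 CPM with slick oil and 157, 146 and 77.8 CPM with source oil, against 55.3, 48.4 and 47.9 CPM in clean water (log2 -1.84, SE 0.176). It stood below clean water in all slick-oil libraries and above it in all source-oil libraries. The membrane-bound protease MMP14, which activates other metalloproteinases, was at 154 ± 5.87 CPM with slick oil and 299 ± 34.3 CPM with source oil (SD, n = 3 each; log2 -0.96). ADAMTS2, which trims procollagen, was the one higher gene (log2 0.45).

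Some markers of macrophages moved with these groups. Of 11 measured genes in the list for macrophages and scavenger endothelium, 5 were lower and 1 was higher with slick oil (median -0.70). The higher one was MPO, a granule peroxidase that is not a marker of macrophages alone. Its call was lost without source-oil library 7 (log2 0.47) and with DESeq2. MPEG1, a pore-forming protein of macrophages, had 4.41, 8.17 and 9.33 CPM with slick oil and 20.2, 13.1 and 17.8 CPM with source oil (log2 -1.22). CTSS, a cathepsin with which these cells cut antigens, had 11.5, 17.4 and 15.2 CPM with slick oil and 42.3, 37.2 and 34.97 CPM with source oil, against 14.4, 17.0 and 14.2 CPM in clean water (log2 -1.38, SE 0.162, edgeR adjusted p = 3.09e-07). Its source-oil libraries stood above all others, and slick oil overlapped with clean water. Over the macrophage markers CSF1R, MPEG1 and MARCO the summed level was 19.4 to 25.2 CPM with slick oil, 27.9 to 40.7 CPM with source oil and 17.3 to 23 CPM in clean water, and MARCO was at 0 in all 9 libraries. CSF1R alone lay at 11.2 to 15.9 CPM with slick oil and 14.8 to 21.8 CPM with source oil, so that the oils overlapped. The part of these cells in the inflammatory and protease differences was not tested.

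**Figure D2:**
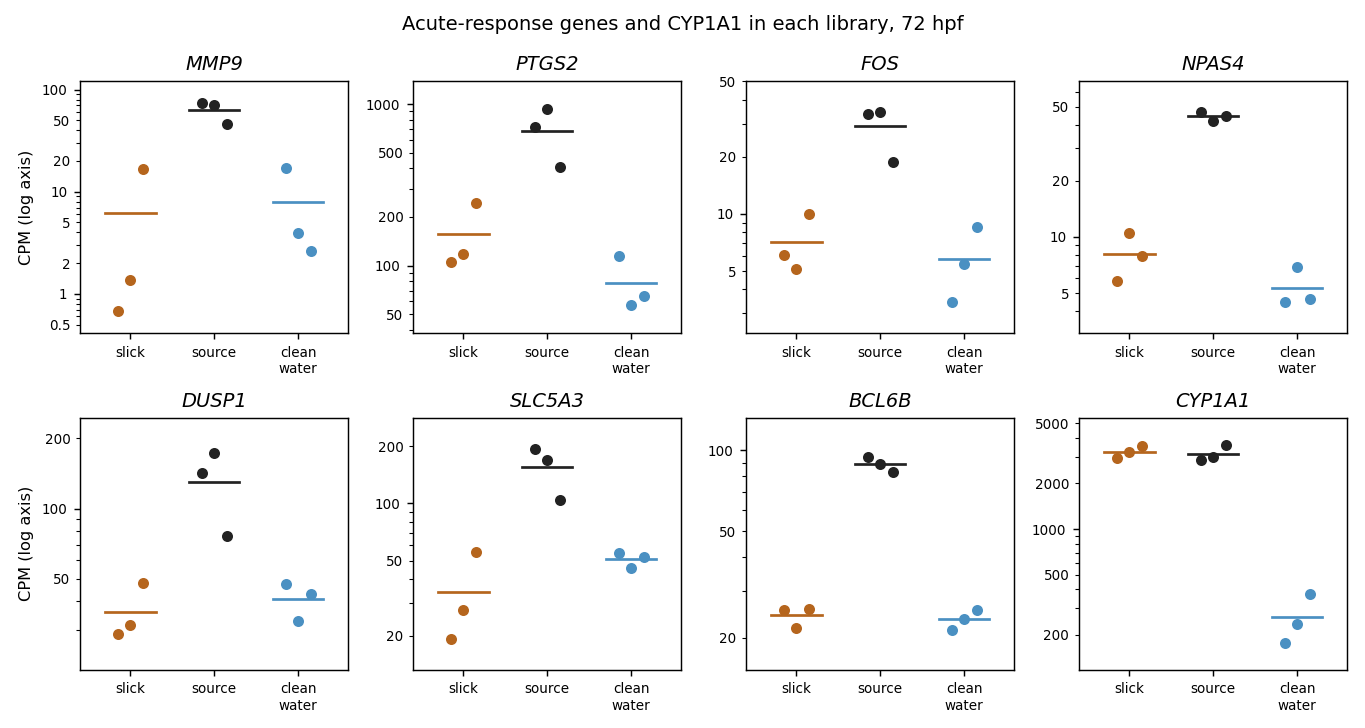
CPM on a log axis in each of the 3 slick-oil, 3 source-oil and 3 clean-water libraries (points, library 7, 8 and 9 from left to right) with the group mean (line). In MMP9, PTGS2, FOS, NPAS4, DUSP1, SLC5A3 and BCL6B the source-oil libraries lie above the slick-oil libraries, while for CYP1A1 the oils overlap at 2858 to 3596 CPM.

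Genes of cholesterol synthesis were mostly higher with both oils than in clean water. Part of them were lower with slick oil than with source oil. Of 23 measured genes, 10 were lower and 0 higher with slick oil (median -0.44), and the 10 were 6 without slick-oil library 9. LSS, which closes the sterol ring, had 19.0, 22.8 and 11.7 CPM with slick oil and 41.5, 37.9 and 35.7 CPM with source oil, against 9.27, 9.03 and 6.93 CPM in clean water. The oils did not overlap and both exceeded clean water. The oils differed by -1.10 on the log2 scale (SE 0.169, edgeR adjusted p = 2.37e-05). MSMO1, which removes methyl groups from the sterol ring, had 255, 226 and 138 CPM with slick oil and 368, 425 and 313 CPM with source oil, against 81.7, 121 and 71.0 CPM in clean water (log2 -0.84, SE 0.133). CYP51A1, the sterol demethylase, was lower by 1.06 on the log2 scale and INSIG1, the sterol sensor that holds the pathway's regulator in check, by 0.54. SQLE, which oxidises squalene, missed the test (log2 -0.51, interval -1.05 to 0.02). Against clean water, 17 of 23 genes were higher with slick oil and 22 of 23 with source oil, with 0 lower in either. Over all genes, 8.55% and 11.4% were called higher, and both comparisons share the same source-series clean-water libraries.

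Antioxidant genes, many of them higher with both oils than in clean water, differed little between the oils. Of 25 measured genes, 6 were lower and 0 higher with slick oil (median -0.22); the 6 were 3 without slick-oil library 7, 2 without slick-oil library 8, 2 without source-oil library 8, 2 with scaling by library totals and 1 with the series difference subtracted. CAT, the peroxisomal enzyme that splits hydrogen peroxide, stood apart from them. It had 101, 91.6 and 113 CPM with slick oil and 217, 248 and 218 CPM with source oil, against 173, 195 and 220 CPM in clean water, so that slick-oil larvae lay below both other groups. The log2 fold change was -1.17 (SE 0.0963, edgeR adjusted p = 6.21e-10). Against clean water of the source series, 15 of 25 antioxidant genes were higher and 1 lower with slick oil. With source oil 19 of 25 were higher and 0 lower. Over all genes, 8.55% and 11.4% were called higher, and for slick oil this comparison includes the series. PRDX1, a peroxide-reducing enzyme, missed the threshold (log2 -0.24, interval -0.41 to -0.06). The autophagy receptor SQSTM1 was at the threshold (log2 -0.33, edgeR adjusted p = 0.0496) with overlapping libraries, and the call was lost without slick-oil library 7 (-0.18) or 8 (-0.25) and without source-oil library 8 (-0.29) or 9 (-0.30), and with DESeq2; without slick-oil library 9 the log2 fold change was -0.57. Proteasome subunits, which degrade damaged proteins, were lower in 15 of 32 cases with 0 higher (median -0.27). That count was 0 with scaling by library totals, 8 with DESeq2, 4 without slick-oil library 7, 6 without slick-oil library 8 and 3 without source-oil library 8. Unexposed larvae of the slick series had a median of -0.26 at 48 hpf, with 3 of 33 called lower and 0 higher. Over all genes, 2.41% were called lower there. With the series difference subtracted, the median was -0.03, and edgeR called 0 of 32, with 0 at an unadjusted p under 0.05. PSMB5, a catalytic subunit, had 308, 301 and 311 CPM with slick oil and 370, 400 and 336 CPM with source oil (log2 -0.27, edgeR adjusted p = 0.0269), a call that was lost in 5 of the 6 fits that left out 1 library, with log2 fold changes of -0.34 to -0.21 over the 6. SQRDL, which oxidises sulfide in mitochondria, was lower by 0.46 and the secreted cartilage protein CRTAC1 by 0.55, and both lost their calls on subtraction (-0.21 and -0.36). BAG3, a co-chaperone of damaged muscle proteins, had 38.4, 45.3 and 52.5 CPM with slick oil and 139, 130 and 87.8 CPM with source oil (log2 -1.40, SE 0.138, edgeR adjusted p = 1.9e-08), with slick oil near the clean-water values of 38.1, 36.1 and 34.99 CPM.

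Many eye genes had the opposite pattern: levels were higher with slick oil, nearer to clean water. Of 25 measured phototransduction genes (39 listed), 13 were higher and 0 lower with slick oil, with a median log2 fold change of 0.33. Against clean water, 16 of 25 were lower with slick oil and 24 of 26 with source oil, with 0 higher in either, where 10.1% and 9.04% of all genes were called lower. ARR3, the arrestin that quenches cone opsins, had 319, 322 and 266 CPM with slick oil and 138, 167 and 129 CPM with source oil, against 326, 328 and 396 CPM in clean water. The oils were far apart, and slick-oil libraries lay just below clean water. ARR3 differed by 1.06 on the log2 scale (SE 0.0997, edgeR adjusted p = 9.07e-09). CNGA3, a subunit of the cone channel opened by cyclic GMP, had 63.1, 60.2 and 56.6 CPM with slick oil and 27.8, 28.6 and 26.4 CPM with source oil, against 61.1, 74.1 and 64.7 CPM in clean water (log2 1.11, SE 0.125). Its slick-oil and clean-water libraries overlapped. The cone opsin kinase GRK7 was higher by 0.83 on the log2 scale, the cyclic GMP synthase GUCY2D by 0.94 and PDC, which binds the light-signalling G protein, by 0.97. Of the genes that did not pass, the cone transducin GNAT2 had a log2 fold change of 0.23 (edgeR adjusted p = 0.054, interval 0.06 to 0.40). The cone opsin OPN1LW was too low to be tested, with counts of 0, 2 and 1 with slick oil and 1, 4 and 2 with source oil, and its clean-water counts of 10, 1814 and 54 rest on 1 library.

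UNC119, which carries lipid-bound signalling proteins in photoreceptors, had 102, 93.9 and 80.1 CPM with slick oil and 44.9, 40.3 and 35.7 CPM with source oil, against 71.1, 73.0 and 73.3 CPM in clean water. All slick-oil libraries lay above clean water and all source-oil libraries below it (log2 1.19, SE 0.119, edgeR adjusted p = 2.43e-08). CYP4V2, a fatty-acid P450 of the retinal pigment epithelium, had 48.9, 55.1 and 70.5 CPM with slick oil and 15.99, 16.9 and 26.4 CPM with source oil, against 29.5, 44.4 and 34.99 CPM in clean water (log2 1.55, SE 0.165). Its groups were ordered in the same way. ZNF395, a zinc-finger factor, had 71.3, 72.5 and 62.5 CPM with slick oil and 29.7, 34.5 and 26.8 CPM with source oil, against 38.8, 39.4 and 28.7 CPM in clean water (log2 1.18, SE 0.126), but it was also higher in unexposed larvae of the slick series at 48 hpf (log2 0.63). Visual cycle genes, which recycle the light-sensing pigment, were split, with 4 higher and 3 lower of 15. The 4 were 2 with DESeq2, and the 3 were 1 without slick-oil library 8 and 1 with scaling by library totals; with the series difference subtracted, 4 were higher and 0 lower. RPE65, which regenerates visual pigment, had 76.7, 88.8 and 59.1 CPM with slick oil and 65.5, 62.4 and 41.4 CPM with source oil, against 143, 164 and 155 CPM in clean water. The oils overlapped (log2 0.41, edgeR adjusted p = 0.0456), and the call was lost without slick-oil library 7 (0.39) or 8 (0.27), without source-oil library 8 (0.49) or 9 (0.22), and with DESeq2. Photoreceptor and eye-field transcription factors were mostly not called, with 3 higher and 1 lower of 15 measured (median 0.30). With the series difference subtracted, 0 were higher and 1 was lower. The lower gene was NEUROD1, a factor of developing neurons and photoreceptors. It had 20.4, 17.0 and 24.9 CPM with slick oil and 38.8, 48.6 and 45.7 CPM with source oil, against 54.9, 49.9 and 72.3 CPM in clean water (log2 -1.10, SE 0.15). Here slick-oil larvae lay farthest from clean water.

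Lens crystallins, the structural proteins of the lens, were higher with slick oil too: 9 of 12 measured lens genes were higher and 0 lower, with a median log2 fold change of 0.36. CRYGB had 8149, 8232 and 8500 CPM with slick oil and 5712, 7103 and 6002 CPM with source oil, against 9918, 14240 and 13770 CPM in clean water. The 3 groups did not overlap, with slick oil between source oil and clean water (log2 0.40, SE 0.0857, edgeR adjusted p = 0.00118). CRYBA1 had 875, 834 and 859 CPM with slick oil and 546, 671 and 661 CPM with source oil (log2 0.45). The summed level of the photoreceptor markers ARR3, GNAT2 and PDE6C was 1080 to 1200 CPM with slick oil, 800 to 887 CPM with source oil and 1520 to 1850 CPM in clean water. That of the lens markers CRYBA1, CRYBB1 and CRYAA was 2620 to 2740 CPM, 1830 to 2220 CPM and 3220 to 4470 CPM in the same order, and CRYAA was near 0 throughout. The part of these marker levels in the eye gene differences was not tested.

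Synaptic genes were higher with slick oil than with source oil in 21 of 33 cases and lower in 1, with a median log2 fold change of 0.36. Against clean water of the source series, slick-oil larvae had 2 higher and 2 lower of the list and source-oil larvae 1 higher and 18 lower. Over all genes, 10.1% and 9.04% were called lower, and for slick oil this comparison includes the series. At 48 hpf, slick oil over clean water of its own series gave 0 higher and 1 lower of 33. The median there was -0.28 and the range -0.50 to -0.17, beside a median of -0.00374 over all genes. The AMPA-type glutamate receptor GRIA3 had 855, 911 and 804 CPM with slick oil and 602, 544 and 616 CPM with source oil, against 770, 744 and 824 CPM in clean water. Slick-oil libraries overlapped with clean water and lay above all source-oil libraries (log2 0.54, SE 0.083, edgeR adjusted p = 2.4e-05). The related receptors GRIA1 and GRIA4 differed by 0.54 and 0.53; whether reads are shared among these similar rows was not tested. SV2B, a protein of synaptic vesicles, had 177, 199 and 163 CPM with slick oil and 91.4, 114 and 93.1 CPM with source oil, against 154, 159 and 170 CPM in clean water (log2 0.84, SE 0.101). SYT4, a calcium sensor of vesicle release that neuronal activity induces, was the one lower gene, with 31.6, 29.3 and 31.4 CPM with slick oil and 48.0, 64.1 and 45.7 CPM with source oil (log2 -0.78). The neuron marker SNAP25, a protein of vesicle fusion, lay at 228 to 253 CPM with slick oil, 245 to 252 CPM with source oil and 276 to 331 CPM in clean water, so that the oils overlapped. SYT1, another calcium sensor of vesicle release, lay at 71.5 to 83.4 CPM with slick oil, 54.1 to 58.9 CPM with source oil and 68.7 to 72.2 CPM in clean water. The part of these marker levels in the synaptic differences was not tested.

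Clock genes differed in both directions. In the vertebrate clock, CLOCK and its partner ARNTL switch on the PER and CRY repressors, DBP, TEF and NR1D2, so that ARNTL and NFIL3 peak when these targets are low. Of 22 measured clock genes, 7 were higher and 7 lower with slick oil. PER1 had 88.3, 81.3 and 73.9 CPM with slick oil and 20.9, 25.2 and 28.2 CPM with source oil, against 33.3, 64.7 and 26.7 CPM in clean water. PER3 had 155, 158 and 126 CPM with slick oil and 61.3, 34.8 and 38.5 CPM with source oil, against 63.2, 76.9 and 35.98 CPM in clean water. In both genes slick-oil libraries lay above all others, while clean-water library 8 stood above the other clean-water libraries. Their log2 fold changes were 1.70 (SE 0.129, edgeR adjusted p = 1.58e-10) and 1.71 (SE 0.136, edgeR adjusted p = 4.18e-10). DBP had 27.2, 21.8 and 18.0 CPM with slick oil and 9.52, 4.83 and 4.995 CPM with source oil (log2 1.80, SE 0.236), NR1D2 was higher by 0.71 and TEF by 0.51 on the log2 scale.

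Among the 7 lower genes, ARNTL had 44.8, 43.6 and 56.6 CPM with slick oil and 107, 118 and 103 CPM with source oil, against 74.2, 56.4 and 89.5 CPM in clean water (log2 -1.18, SE 0.112, edgeR adjusted p = 1.1e-08). NFIL3 had 4.07, 3.06 and 4.49 CPM with slick oil and 20.6, 14.1 and 28.6 CPM with source oil, against 16.1, 16.3 and 22.5 CPM in clean water (log2 -2.43, SE 0.273). Slick-oil libraries were the lowest of the 9 in NFIL3, and ARNTL overlapped with clean water in slick-oil library 9 only. CLOCK itself had overlapping groups and missed the test (log2 -0.31, edgeR adjusted p = 0.0574). The 7 lower genes were 4 without slick-oil library 7, 4 with DESeq2 and 4 with scaling by library totals, which also called 12 higher. Unexposed larvae of the slick series at 48 hpf had higher PER1 (log2 0.61) and PER3 (log2 0.45) than those of the source series. With that series difference subtracted, PER1 differed between the oils by 1.07 (edgeR adjusted p = 0.00122), PER3 by 1.24 (edgeR adjusted p = 0.000139), ARNTL by -1.12 and NFIL3 by -2.21, and the list had 3 higher and 4 lower. At 48 hpf, slick oil over clean water of its own series gave PER1 the opposite sign (log2 -0.77, edgeR adjusted p = 0.00503). The larvae were kept in a daily light and dark cycle, and the hour at which each group was sampled is not given in the sources used here.

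**Figure D3:**
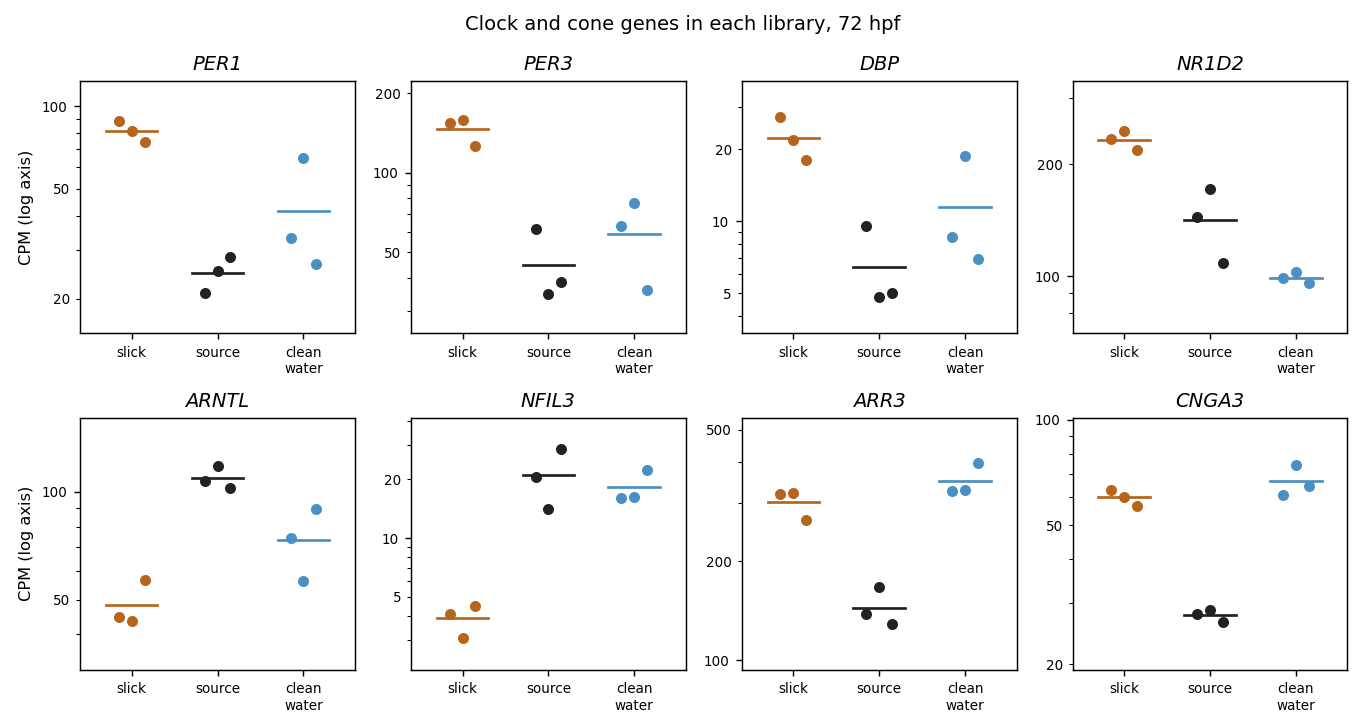
CPM on a log axis in each slick-oil, source-oil and clean-water library at 72 hpf (points, library 7, 8 and 9 from left to right) with the group mean (line) for 6 clock genes and the cone genes ARR3 and CNGA3. PER1, PER3, DBP and NR1D2 have their highest means with slick oil and ARNTL and NFIL3 their lowest, whereas in ARR3 and CNGA3 source oil stands below slick oil and clean water.

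Ribosome genes split by kind. Of 63 measured cytosolic ribosomal proteins, the parts of the ribosome itself, 60 were lower and 0 higher with slick oil, with log2 fold changes of -0.63 to -0.17 and a median of -0.41. RPS12 had 1120, 1062 and 1118 CPM with slick oil and 1537, 1617 and 1484 CPM with source oil, against 1718, 2117 and 2122 CPM in clean water (log2 -0.50, SE 0.0798, edgeR adjusted p = 4.72e-05). The 3 groups did not overlap, and the slick-oil libraries were the lowest. The whole list was lower than clean water with slick oil, 63 of 63, and 54 were lower with source oil, where 10.1% and 9.04% of all genes were called lower. Unexposed larvae of the slick series also had lower levels at 48 hpf, in 33 of 63 genes with a median of -0.32, where 2.41% of all genes were called lower. Genes of ribosome biogenesis, which build ribosomes in the nucleolus, were higher with slick oil in 7 of 25 cases and lower in 0 (median 0.31); the 7 were 15 with scaling by library totals. POLR1A, the large subunit of RNA polymerase I, had 52.6, 60.2 and 49.4 CPM with slick oil and 31.6, 30.7 and 31.4 CPM with source oil, against 50.8, 57.4 and 47.2 CPM in clean water. Slick-oil and clean-water libraries overlapped (log2 0.79, SE 0.127, edgeR adjusted p = 4.7e-05). RRS1, which assembles the large subunit, was higher by 0.73 and UTP20, which processes the small one, by 1.02 on the log2 scale. The 39 measured mitochondrial ribosomal proteins had a median of 0.02.

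Digestive enzymes of the exocrine pancreas were lower with slick oil in all 10 measured of 27 listed genes, with a median log2 fold change of -0.75. The trypsin gene PRSS1 had 16140, 12710 and 15100 CPM with slick oil and 24980, 26870 and 28220 CPM with source oil, against 21070, 32060 and 25950 CPM in clean water. The chymotrypsin gene CTRB1 had 6559, 6392 and 6518 CPM with slick oil and 11080, 11730 and 13660 CPM with source oil, against 8820, 14440 and 10410 CPM in clean water. In both genes slick-oil libraries were the lowest, and source oil overlapped with clean water. The log2 fold changes were -0.87 (SE 0.0891, edgeR adjusted p = 3.47e-08) and -0.91 (SE 0.0846, edgeR adjusted p = 8.06e-09). Unexposed larvae of the 2 series differed in the same way at 48 hpf, where 2.41% of all genes were called lower. In the slick series 9 of 9 measured pancreas genes were lower (median -1.14), with PRSS1 at -1.14 and CTRB1 at -1.10. With that difference subtracted, edgeR called 0 of the 10 pancreas genes, with 2 at an unadjusted p under 0.05, and PRSS1 and CTRB1 came to 0.24 and 0.16. The markers CPA1, CTRB1 and CELA2A summed to 7030 to 7320 CPM with slick oil, 12200 to 14900 CPM with source oil and 9610 to 15600 CPM in clean water, with CELA2A at 0 throughout. Brush-border genes of the gut, which digest and absorb at its surface, were lower in 6 and higher in 1 of 17 cases with a median of -0.05, which turned to 0.12 with scaling by library totals; the 6 were 3 without slick-oil library 8, 3 without source-oil library 8 and 3 with scaling by library totals. In unexposed larvae, 7 of 16 were lower in the slick series at 48 hpf (median -0.69), beside 2.41% of all genes. With that series difference subtracted, the gut list turned to 5 higher and 0 lower (median 0.65). LCT, the enzyme that splits milk sugar in mammals, had 302, 296 and 285 CPM with slick oil and 390, 384 and 446 CPM with source oil (log2 -0.47). It was lower by 1.61 in unexposed larvae of the slick series at 48 hpf, and with that subtracted its sign turned to 1.12 (edgeR adjusted p = 0.00192). Plasma proteins of the liver were lower in 9 of 23 cases and higher in 0, or lower in 3 with DESeq2. With the series difference subtracted, edgeR called 0 of 23, with 7 at an unadjusted p under 0.05. FGB, a fibrinogen chain, had 257, 181 and 301 CPM with slick oil and 433, 477 and 337 CPM with source oil, against 298, 375 and 306 CPM in clean water (log2 -0.76, SE 0.125). FGB was also lower in unexposed larvae of the slick series at 48 hpf (log2 -0.52), and with that subtracted the difference was -0.27 (edgeR adjusted p = 0.589). Of the liver markers APOA1, FGB and TF, only FGB had a count.

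Skeletal muscle genes were lower with slick oil in 13 of 19 cases and higher in 1 (median -0.44), or lower in 8 with scaling by library totals and in 2 with the series difference subtracted (median -0.30). CKM, the creatine kinase that buffers energy in muscle, had 26960, 27190 and 28170 CPM with slick oil and 40420, 39420 and 34920 CPM with source oil, against 30460, 36940 and 29310 CPM in clean water. Slick-oil libraries lay below both other groups (log2 -0.48, SE 0.0827, edgeR adjusted p = 0.000101), and scaling by library totals made the difference -0.31. MYLPF, a fast-muscle myosin light chain, had 2681, 2578 and 2662 CPM with slick oil and 4455, 4285 and 3595 CPM with source oil (log2 -0.64), and lost its call on subtraction (-0.31, edgeR adjusted p = 0.17). The myogenic factor MYOG, which drives muscle cells to differentiate, was lower by 0.65. The markers CKM, MYLPF and TNNT3 summed to 29600 to 30800 CPM with slick oil, 38500 to 44900 CPM with source oil and 32900 to 41200 CPM in clean water, with TNNT3 near 0.

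Of 16 measured heart genes, 5 were lower and 1 was higher with slick oil (median -0.21), where 9.85% and 7.61% of all genes were called. The 5 were 2 without slick-oil library 7, 3 without slick-oil library 9, 2 without source-oil library 7, 3 with DESeq2 and 2 with scaling by library totals, and with the series difference subtracted 0 were lower and 2 higher. MYBPC3, a binding protein of heart myosin, had 38.4, 30.97 and 45.6 CPM with slick oil and 60.9, 55.5 and 61.7 CPM with source oil, against 61.5, 59.2 and 38.3 CPM in clean water (log2 -0.64, SE 0.13, edgeR adjusted p = 0.000708), and was at -0.35 (edgeR adjusted p = 0.284) after subtraction. MYL7, the atrial myosin light chain, had 7.81, 11.2 and 15.9 CPM with slick oil and 7.62, 6.20 and 8.56 CPM with source oil, against 21.98, 29.98 and 28.4 CPM in clean water. The oils overlapped and both lay below clean water. The log2 fold change was 0.64 (edgeR adjusted p = 0.0889, interval 0.11 to 1.16), and it passed without slick-oil library 7 (0.86), with scaling by library totals (0.80) and with the series difference subtracted (1.31, edgeR adjusted p = 0.0209); without slick-oil library 9 it was 0.35. TNNT2, the cardiac troponin, had a log2 fold change of -0.23 with an interval of -0.66 to 0.20. FHL2, a scaffold protein of heart and muscle, had 779, 786 and 721 CPM with slick oil and 530, 481 and 453 CPM with source oil, against 812, 898 and 914 CPM in clean water (log2 0.64, SE 0.084, edgeR adjusted p = 1.9e-06). The summed level of MYL7 and TNNT2 was 18.3 to 25.6 CPM with slick oil, 16.9 to 22.1 CPM with source oil and 41.2 to 50.9 CPM in clean water. PCNA, the replication clamp, was lower by 0.66 with slick oil, a call lost without source-oil library 8 (-0.53) and with DESeq2.

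**Figure D4:**
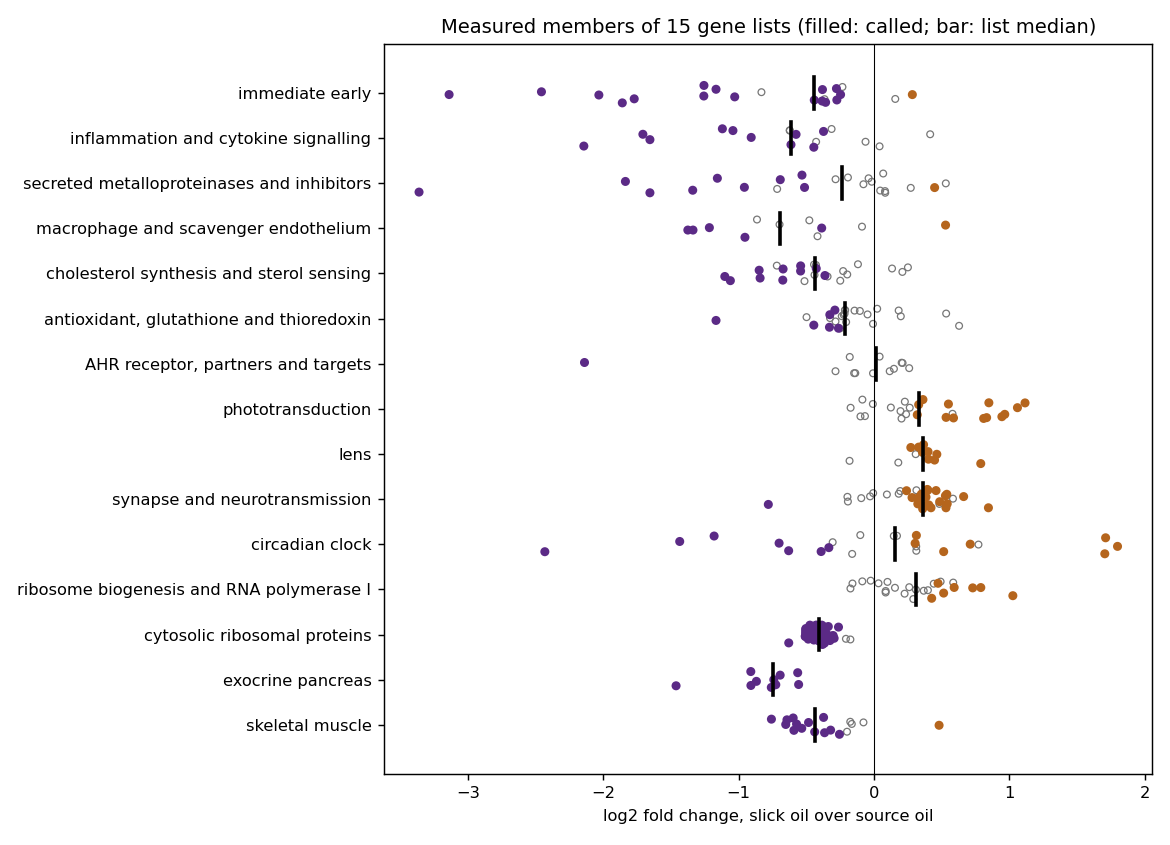
Each point is a measured member of a gene list, placed by its log2 fold change of slick oil over source oil on the x axis (the vertical scatter within a row has no meaning). Filled points are called, purple lower and brown higher with slick oil, open points are not called and the black bar is the list median, such as -0.61 for inflammation and 0.33 for phototransduction.

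By the library names, unexposed larvae of both series were available at 48 hpf, and their difference shows what the series brings without oil at that age. Among 9100 genes, 405 (4.45%) passed the test, 186 (2.04%) higher and 219 (2.41%) lower in the slick series than in the source series. The count ranged from 96 to 1202 when 1 library was left out. It was 110 without slick-series library 5, 115 without slick-series library 6, 1202 without source-series library 4, 114 without source-series library 5 and 96 without source-series library 6. Among 8743 genes tested in both comparisons, which share no library, 189 were called in both. They were 12.4% of those called between the oils and 47.4% of those called between the series. Over all genes tested in each comparison, 4.45% were called between the series and 17.5% between the oils. Of the 189, 172 had the same sign and 17 the opposite sign. Across these genes, which are not independent replicates, Pearson's r of the 2 log2 fold changes was 0.20. With the series difference subtracted, 13 of 25 phototransduction genes were higher and 0 lower (median 0.54), and BCL6B (-2.04), DUSP1 (-2.32), PTGS2 (-2.69), SLC5A3 (-2.08), LSS (-1.68), CAT (-0.96), ARR3 (1.47) and CNGA3 (1.43) kept their calls. Of 21 immediate early genes 9 were lower and 2 higher, of 17 inflammation genes 4 lower and 0 higher. Of 22 metalloproteinases and inhibitors 7 were lower and 0 higher. Of 11 genes in the macrophage list 1 was lower and 0 higher, and of 23 cholesterol genes 5 lower and 0 higher. MMP9 lost its call (-2.70, edgeR adjusted p = 0.529), as did SOCS3 (-0.78), CTSS (-0.75), MPEG1 (-0.77), CRYGB (0.41), CRYBA1 (0.35), GRIA3 (0.23), RPS12 (-0.14), UTP20 (0.93), ZNF395 (0.52) and PCNA (-0.32). A lost call can come from a larger SE as well as from a smaller difference. CRYGB kept its size, 0.3987 without and 0.4056 with subtraction, while its SE went from 0.0857 to 0.127. The other genes just listed as losing their calls had smaller differences after subtraction. GRIA3 went from 0.54 to 0.23 and CTSS from -1.375 to -0.75. FOS moved to -5.38 and GRK7 to 1.501, both still called. FOS and MMP9 were near 0 in unexposed larvae at 48 hpf and too low to be tested between the series. FOS averaged 1.57 CPM in the slick series and 0.11 CPM in the source series, and MMP9 0.50 and 0.81 CPM. The subtracted values of FOS and MMP9 rest on these low counts and had SEs of 1.09 and 1.98. Of 33 synaptic genes 5 were higher and 1 lower. EdgeR called 0 of 12 lens genes (median 0.31), with 7 at an unadjusted p under 0.05, and 0 of 63 cytosolic ribosomal proteins (median -0.14), with 3.

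At 48 hpf, slick oil was also set against clean water of its own series. Here 244 of 9091 genes (2.68%) were called, 175 (1.92%) higher and 69 (0.759%) lower, and the count was 941 without slick-oil library 4, 102 without slick-oil library 5, 141 without slick-oil library 6 and 121 without either clean-water library 5 or 6. Proteasome subunits were higher in 17 of 33 cases, antioxidant genes in 12 of 25 and cholesterol genes in 6 of 22, with 0 lower in each. Phototransduction genes were lower in 8 of 26 cases and higher in 0 (median -0.66).

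**Figure D5:**
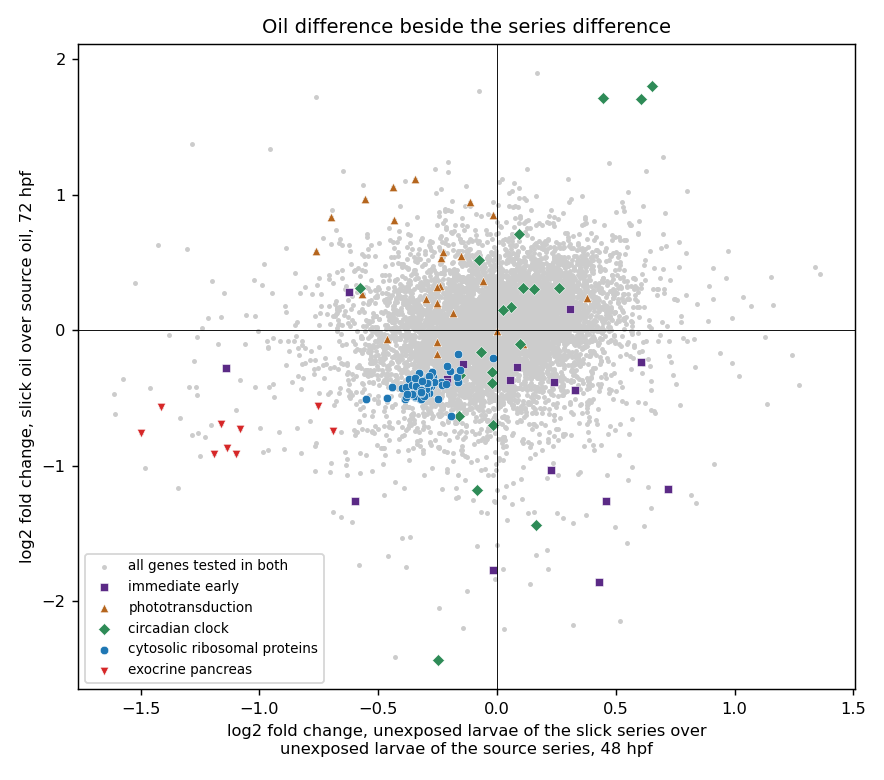
Each point is a gene, with the log2 fold change of unexposed slick-series over unexposed source-series larvae at 48 hpf on the x axis and that of slick over source oil at 72 hpf on the y axis. Pancreas and ribosomal protein genes lie at lower left, with medians of -1.14 and -0.32 on the x axis, while phototransduction genes lie mostly at upper left, with a median of -0.25 on the x axis and 0.33 on the y axis.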

How the data were processed

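Per the labels' protocols, TruSeq libraries of 30 pooled larvae were sequenced on a HiSeq2500. The deposited counts are raw read counts per row and library, as their whole numbers and differing totals show; rows carry human symbols. The submitters' processing notes list HTSeq, DESeq2 and hg19, with neither versions nor roles. The aligner, and how fish reads were assigned, is not given in the sources used here. Tables were joined by row. The control columns of both 72 hpf tables hold identical counts, and 1 column of the series that matched no sample was not used. The slick-series columns read as unexposed at 48 hpf stand under a treated prefix beside the source-series controls. Beside slick oil they stand under a control prefix, with identical counts. They were taken as unexposed because their library names are those of controls.

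Each comparison of 3 against 3 libraries was fitted on raw counts with edgeR 4.0.16 in R 4.3.3: filterByExpr, TMM, quasi-likelihood F test, Benjamini-Hochberg adjustment over all genes tested, call at an adjusted p under 0.05. The filter keeps a gene that has enough counts in 3 libraries of either group, so measured members are not all listed members. The SE is the fold change divided by the root of F, and 95% intervals use the test's degrees of freedom. CPM use TMM factors of the 9 libraries of 72 hpf. The fit was tested on simulated counts. Intervals cover the spread between libraries, without correction for the number of genes.

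Members, lists and rules were chosen with earlier results of these data known. The text draws on 8 large rises and 8 large falls at or above the median level with groups apart, up to 4 members of lists with 3 or more calls, and a fixed set; ADAMTS2, CTGF, DBP, NR1D2, TEF, CLOCK, GNAT2, SYT4 and MYOG are list members chosen after their values were seen, and a few members are not reported here. Alternatives were other scalings and filters, DESeq2 1.42.0, a replicate block, 1 library left out, a fit of all 9 libraries and subtraction of the 48 hpf series difference; dropping rows within 5% of an earlier row was added after seeing the data.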

Additional observations from a re-analysis of the deposited data

Results flagged for a closer look

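In 112 called genes, 7.18% of those called, the oils lay on opposite sides of the clean-water libraries: 67 had slick-oil libraries above and source-oil libraries below all clean-water libraries, and 45 the reverse. Counted as rows, they were 113 of 8944 tested. The pattern was counted in called genes only, so its share over all genes tested is not given here. Calling favours it, as the oils did not overlap in 1480 of the 1562 called genes. The difference itself is the edgeR comparison of slick with source oil. Both oils are set against the same clean-water libraries, which belong to the source series. For slick oil, a position above or below clean water therefore includes the series. Of the named genes, 7 were above clean water with slick oil and below it with source oil: CYP4V2 (log2 slick over source 1.55), UNC119 (1.19), the Wnt factor LEF1 (0.54), the glutamate receptors GRIA1 (0.54) and GRIA4 (0.53), GATA1 (0.46), a factor of red blood cells, and the valyl-tRNA synthetase VARS (0.37). In the other direction stood the protease inhibitor TIMP3 (-1.84), the glycolysis regulator PFKFB3 (-1.26), CHAC1 (-1.07), which breaks down glutathione, the cathepsin CTSZ (-0.68), CCNG1 (-0.62), a p53 target, the chaperone HSPA8 (-0.44) and the threonyl-tRNA synthetase TARS (-0.42). With the 48 hpf series difference subtracted, CYP4V2, UNC119, TIMP3, PFKFB3, CHAC1 and CTSZ kept their calls. CYP4V2 was too low at 48 hpf to be tested between the series, with means of 3.03 CPM in unexposed slick-series and 4.23 CPM in unexposed source-series larvae. Its subtracted value of 2.03 rests on these low counts and had an SE of 0.524. LEF1, GRIA1, GRIA4, GATA1, VARS, CCNG1, HSPA8 and TARS lost theirs.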

How the results depend on the processing

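The comparison of the oils had 962 calls with DESeq2 (393 higher, 569 lower), 398 with the series difference subtracted (149 higher, 249 lower), 153 past a log2 fold change of 1, and 1054 to 1661 with 1 library left out (434 to 704 higher, 607 to 957 lower); library totals gave 1860 higher and 453 lower. Against clean water, DESeq2 called 957 genes for slick oil and 1177 for source oil. The 48 hpf series comparison had 51 calls with a replicate block and 96 to 1202 with 1 library left out; slick oil at 48 hpf had 98 with the block and 102 to 941. Same-numbered slick- and source-oil libraries shared only a number, with correlations of their deviations of -0.0334, -0.073 and -0.0168 and none highest with its own number; the replicate block gave 1385 calls and ended the call of 5 of 182 named genes. Near 0, AHRR ranged over -0.0521 to 0.0409 and CYP1A1 over -0.0252 to 0.141 with 1 library left out, and AHRR to 0.16 with library totals. With the series difference subtracted, AHRR was at -0.31 and CYP1A1 at 0.76, and neither was called. Subtraction turned AMN (0.49), AMY2B (0.25), ANGPTL4 (0.42), APOA4 (0.48), CELA1 (0.71), CTRB1 (0.16), LCT (1.12), PRSS1 (0.24) and SLC26A3 (0.96), kept the sign of 173 of 182 named genes and ended 104 of 171 named calls. DESeq2 ended the call of 17 of 178 named genes and library totals that of 21 of 182. Near-identical rows such as AMY2B and AMY1B may share reads.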

Other observations

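Energy metabolism and calcium handling also differed. Of 35 measured genes of glycolysis and gluconeogenesis, 16 were lower and 1 was higher with slick oil (median -0.25), or 9 lower without slick-oil library 8, 9 with scaling by library totals and 2 with the series difference subtracted. LDHA, which makes lactate, had 162, 136 and 169 CPM with slick oil and 322, 314 and 226 CPM with source oil, against 127, 149 and 124 CPM in clean water (log2 -0.89, SE 0.11), but lost its call on that subtraction (-0.54). HK1, the hexokinase that commits glucose to glycolysis, was lower by 0.67. The one-carbon enzyme MTHFD2 had 26.8, 36.4 and 57.3 CPM with slick oil and 152, 137 and 71.7 CPM with source oil (log2 -1.59), again with the libraries numbered 9 nearest to each other. TAT, which degrades tyrosine, was lower by 1.44, and was at -2.085 on subtraction.

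Calcium handling and excitation genes were split, with 9 higher and 9 lower of 26, or 0 higher and 4 lower with the series difference subtracted. The lower ones included muscle genes of calcium storage and release: CASQ1 had 796, 832 and 863 CPM with slick oil and 1328, 1211 and 1018 CPM with source oil (log2 -0.52, not called on subtraction), and JPH1, which anchors the release sites, was lower by 0.51. The higher ones included the neuronal and pacemaker calcium channel CACNA1D, with 239, 251 and 228 CPM with slick oil and 172, 128 and 170 CPM with source oil (log2 0.61, not called on subtraction). The bile salt exporter ABCB11 had 26.5, 29.95 and 31.8 CPM with slick oil and 8.76, 11.7 and 13.2 CPM with source oil, against 13.1, 33.2 and 21.8 CPM in clean water (log2 1.38, SE 0.178), although unexposed larvae of the slick series were lower at 48 hpf (log2 -1.28); with the series difference subtracted ABCB11 was at 2.63.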
